A study of Mus musculus with 11 samples.

Results

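The genes described here are 30 genes of enteroendocrine cells, the hormone-secreting cells of the gut lining, chosen by name from a list of peptide hormones, granule proteins, prohormone-processing enzymes, serotonin and amine genes and transcription factors. They are 30 of the 22243 genes of the deposited table. The tissue was the whole wall of the distal colon, taken from 6 wild-type animals (WT) and 5 Nrg4-/- animals (KO), which lack the gene of neuregulin-4, an epidermal growth factor family ligand. All mice were 11 to 12 weeks old and none received a treatment named in the labels. From 9 weeks on, WT and KO animals lived together. There were 3 cages: A and B each contained 2 animals of either genotype, and C contained 2 WT animals with a single KO. Both sexes were used, but the labels give no sex for a mouse; no source used here describes the knockout allele or the strain. A mouse is written as its genotype with its number, such as WT-2.

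Enteroendocrine cells are scattered singly through the epithelium and release hormones from dense-core granules on their basal side. In the distal colon the main types are L cells, which make peptide YY, glucagon-like peptides and insulin-like peptide 5, enterochromaffin cells, which make serotonin, and D cells, which make somatostatin. Enteric neurons of the gut wall also make several of these peptides and granule proteins, so that bulk tissue holds both sources.

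Values are in TPM, an abundance normalised for transcript length and library total, summed over the listed transcripts of a gene. The summed TPM of a mouse was 558446 to 770986. Mitochondrially encoded genes took 19.0% (KO-1) to 42.9% (KO-3) of it. Nrg4 was listed at 0 in all 11 mice, so its level could not check the genotype labels. Eif2s3y, a Y-linked gene, lay between 21.5 and 31.8 TPM in the 4 mice of cage A and at or under 0.0523 TPM in all others, so that cage A and Y-linked expression cannot be told apart. In bulk tissue, fewer cells of a type and less RNA per cell cannot be told apart either.

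Promoter windows, from 250 bases before to 50 bases after a listed start, were matched for 28 of the 30 genes in RefSeq (GRCm38.p6), 34 windows in all. The letters TGACGTCA, the palindromic cyclic AMP response element, stood in 6 of the 34 windows, against 1.79% of all 32851 windows of that length. Its shorter form TGACGT, which every TGACGTCA also holds, stood in 9 of 34 on either strand, against 7.51% of all windows. TATAAA on either strand was in 7 of 34, against 13.6%. These 3 are given out of 9 motifs searched, and were kept after the matches had been seen. The 120 bases before the listed start are shown for 5 granule, hormone and processing genes whose levels are described below, with TGACGTCA (TGACGT for Chga) in capitals.
Sst, chr16:23890845-23890964, minus strand: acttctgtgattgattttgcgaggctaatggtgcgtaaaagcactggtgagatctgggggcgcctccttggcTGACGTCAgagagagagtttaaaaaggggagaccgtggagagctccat
Chgb, chr2:132781522-132781641, plus strand: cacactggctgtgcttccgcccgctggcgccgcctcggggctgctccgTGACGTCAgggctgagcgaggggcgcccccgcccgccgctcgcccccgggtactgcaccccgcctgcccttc
Scg2, chr1:79440027-79440146, minus strand: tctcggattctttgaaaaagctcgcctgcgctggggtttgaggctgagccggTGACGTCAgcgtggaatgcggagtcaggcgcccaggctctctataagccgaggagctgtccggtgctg
Pcsk1, chr13:75089737-75089856, plus strand: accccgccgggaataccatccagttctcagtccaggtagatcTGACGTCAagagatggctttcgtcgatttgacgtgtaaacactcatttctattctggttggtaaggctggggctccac
Chga, chr12:102554821-102554940, plus strand: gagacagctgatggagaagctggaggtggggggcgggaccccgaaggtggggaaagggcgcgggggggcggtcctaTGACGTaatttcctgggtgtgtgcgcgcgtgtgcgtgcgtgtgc
Each of the 5 stretches carries the capitals between 44 and 78 bases before the start. The other windows with TGACGTCA were those of Pax6 and Peg3. A match describes the letters and not a used site.

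Pyy led with a mean of 239 ± 47.4 TPM (SD, n = 11), followed by Insl5 with 167 ± 41.2. Cpe (72.2), Chgb (53.3), Chga (50.8), Ddc (43.4), Gcg (34.8), Sst (23.1) and Tac1 (11.9) had mean TPM above 10. Pyy and Insl5 together took at least 46.9% of the summed TPM of the 30 genes in a mouse. That sum was 547 TPM in WT-7, the lowest, and 915 TPM in KO-8, the highest, or 0.0835% to 0.144% of all TPM. Of the 30 genes, 21 reached 1 TPM in at least 5 mice and were tested, and 9 did not. Cryba2 and Neurod1 passed with exactly 5 mice. The 7 genes set as enteroendocrine markers (Chga, Chgb, Pyy, Gcg, Insl5, Tph1 and Neurod1) were all above 0 in every mouse.

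**Figure D1:**
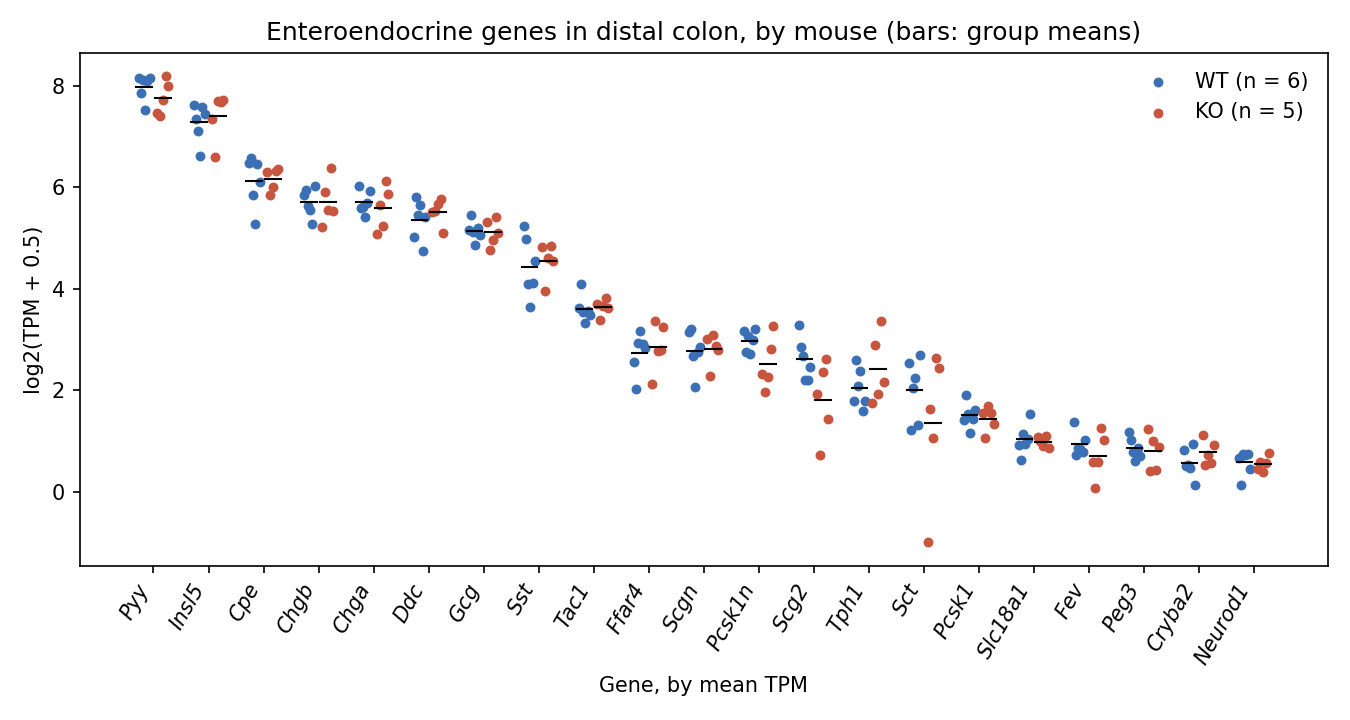
Level of the 21 tested genes in each mouse on the log2(TPM + 0.5) scale, ordered by mean TPM; points are mice, bars are group means. WT (n = 6) and KO (n = 5) points overlap for every gene, and the lowest point is Sct in KO-3, listed at 0 TPM.

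Among the hormones, the L-cell peptides had the highest levels. Pyy encodes peptide YY, which slows gut transit and curbs appetite. Its level was 183 TPM in the lowest, 274 in the median and 285 in the highest WT mouse. In KO it was 169 (KO-1), 175 (KO-3), 211 (KO-4), 290 (KO-8) and 255 TPM (KO-9). KO thus held both the lowest and the highest Pyy mouse. The KO minus WT difference was -0.23 ± 0.16 on the log2(TPM + 0.5) scale (standard error of the limma fit with cage as a term), a fold of 0.854 with a 95% interval of 0.664 to 1.10. It was -0.39 without KO-8 and -0.0880 without KO-3.

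Insl5 encodes insulin-like peptide 5, an L-cell hormone typical of the distal colon. WT ranged from 97.5 over a median of 167 to 196 TPM. KO values were 96.3 (KO-1), 163 (KO-3), 206 (KO-4), 205 (KO-8) and 209 TPM (KO-9). The lowest mice, WT-7 and KO-1, shared cage A and stood under the other 9, which began at 138 TPM. The fitted difference was 0.13 ± 0.20 (log2), a fold of 1.09 (95% interval 0.802 to 1.49).

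Gcg encodes proglucagon, the precursor of glucagon-like peptides. It was the steadiest of the 3 L-cell hormones, at 28.4, 34.7 and 43.4 TPM in the lowest, median and highest WT mouse. KO mice had 26.6 (KO-1), 39.1 (KO-3), 30.8 (KO-4), 42.1 (KO-8) and 33.7 TPM (KO-9). The difference was -0.01 ± 0.14 (log2), a fold of 0.990 with a 95% interval of 0.798 to 1.23. The groups covered nearly the same range.

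The proportions among the 3 hormones varied between mice. Pyy exceeded Insl5 in every mouse, by 1.42 to 2.01 times in WT with a median of 1.54. In KO the ratio was 1.76 (KO-1), 1.07 (KO-3), 1.03 (KO-4), 1.41 (KO-8) and 1.22 (KO-9). All KO mice other than KO-1 lay under the whole WT range. An exact permutation test within cages gave a two-sided p of 0.0648, and 0.194 after adjustment over the 3 ratios examined; the ratios were chosen after the values had been seen. Insl5 over Gcg (3.43 to 6.68) and Pyy over Gcg (4.47 to 8.75) gave exact p of 0.287 and 0.222.

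Sst encodes somatostatin, made by D cells and by some enteric neurons. WT values ran from 11.9 over a median of 19.7 to 37.2 TPM, and KO values were 14.9 (KO-1), 27.8 (KO-3), 24.0 (KO-4), 28.2 (KO-8) and 22.8 TPM (KO-9). The range among WT mice enclosed all KO mice. The difference was 0.10 ± 0.28 (log2), with a fold interval of 0.695 to 1.65. Tac1 encodes the substance P precursor of enterochromaffin cells and enteric neurons. It ran from 9.51 over 11.3 to 16.6 TPM in WT, and was 9.92 (KO-1), 12.4 (KO-3), 12.2 (KO-4), 13.6 (KO-8) and 11.8 TPM (KO-9) in KO. The high WT value was WT-5 alone. The difference was 0.03 ± 0.15 (log2).

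Sct encodes secretin, a hormone that many maturing enteroendocrine cells express. Its WT values were 1.83, 3.92 and 5.95 TPM (lowest, median, highest). KO values were 2.60 (KO-1), 0 (KO-3), 1.57 (KO-4), 5.71 (KO-8) and 4.88 TPM (KO-9). KO-3 was the sole mouse listed at 0 and 2 KO mice stood near the top of the WT range. The difference was -0.84 ± 0.49 (log2) with a 95% interval of -1.93 to 0.24, the widest interval of the 21 genes. It was -0.23 without KO-3 and -1.40 with a pseudocount of 0.1.

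The granule proteins are the acidic cargo proteins and their relatives that fill dense-core granules. Chga encodes chromogranin A, the general marker of endocrine cells. Its WT values were 41.9, 49.5 and 64.4 TPM (lowest, median, highest), and its KO values were 49.4 (KO-1), 33.0 (KO-3), 37.3 (KO-4), 68.6 (KO-8) and 57.7 TPM (KO-9). KO mice lay on both sides of the WT range, for a difference of -0.16 ± 0.18 (log2) and a fold interval of 0.675 to 1.19. Leaving out 1 mouse at a time moved it between -0.30 (without KO-8) and -0.0204 (without KO-3). Chgb encodes chromogranin B. It was 38.4, 52.8 and 64.6 TPM in WT, and 59.2 (KO-1), 36.7 (KO-3), 46.1 (KO-4), 82.1 (KO-8) and 45.9 TPM (KO-9) in KO. Again KO-3 was the lowest and KO-8 the highest mouse. The difference was -0.06 ± 0.16 (log2).

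Scg2 encodes secretogranin II, a granule protein of endocrine cells and neurons. WT values were 4.06, 5.45 and 9.21 TPM (lowest, median, highest). KO values were 1.16 (KO-1), 3.29 (KO-3), 4.63 (KO-4), 5.61 (KO-8) and 2.20 TPM (KO-9). KO-1, KO-3 and KO-9 lay under every WT mouse and the other 2 KO mice lay inside the WT range. The difference was -0.82 ± 0.35 (log2), a fold of 0.568 (95% interval 0.333 to 0.967), with an unadjusted p of 0.0395 and an adjusted p of 0.9999 from limma. The exact permutation test within cages gave p = 0.0741. Without KO-1 the difference was -0.54.

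Pcsk1n encodes proSAAS, a granule protein that inhibits prohormone convertase. WT values were 6.02, 7.63 and 8.69 TPM, against 3.40 (KO-1), 4.47 (KO-3), 4.25 (KO-4), 6.55 (KO-8) and 9.05 TPM (KO-9) in KO. KO-1, KO-3 and KO-4 were under the WT range and KO-9 was above it. The difference was -0.46 ± 0.20 (log2), a fold of 0.725 (0.529 to 0.994), with an unadjusted limma p of 0.0462, an adjusted p of 0.9999 and an exact permutation p of 0.0833. In the authors' deposited table the unadjusted p was 0.0319 for Scg2 and 0.0271 for Pcsk1n, and the q-value was 1 for both. Scgn, which encodes the calcium sensor secretagogin, ranged from 3.69 to 8.67 TPM over all mice with a difference of 0.03 ± 0.21 (log2).

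The prohormone-processing enzymes did not pass the test. Cpe encodes carboxypeptidase E, which trims peptide ends. WT values ran from 38.4 over 77.6 to 95.2 TPM, and KO values were 57.1 (KO-1), 78.6 (KO-3), 63.5 (KO-4), 79.5 (KO-8) and 81.8 TPM (KO-9), all inside the WT range. The difference was 0.06 ± 0.23 (log2). Pcsk1, the gene of prohormone convertase 1, which cuts proglucagon into glucagon-like peptides, lay between 1.59 and 3.23 TPM in all mice, with a difference of -0.06 ± 0.18 (log2) and a fold interval of 0.726 to 1.26.

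The amine genes belong mainly to enterochromaffin cells. Tph1 encodes tryptophan hydroxylase 1, the rate-limiting enzyme of serotonin synthesis outside the nervous system. WT values were 2.52, 3.34 and 5.50 TPM. KO values were 6.90 (KO-1), 2.85 (KO-3), 3.32 (KO-4), 9.81 (KO-8) and 3.99 TPM (KO-9). The 2 KO mice above the WT range were both in cage A. The difference was 0.32 ± 0.17 (log2), a fold of 1.25 (0.965 to 1.61). Ddc, the decarboxylase that makes serotonin and dopamine from their precursors, lay between 26.3 and 55.1 TPM, with a difference of 0.14 ± 0.16 (log2). Slc18a1, the vesicular monoamine transporter of endocrine cells, lay between 1.03 and 2.37 TPM, with a difference of -0.03 ± 0.18 (log2). Ddc was split over 3 listed transcripts, and one of them took 17.8 TPM in WT-5 and 10.5 TPM in WT-10 but at most 1.89 TPM in the other 9 mice. Transcript shares estimated from short single-end reads are uncertain, so only the gene sum was tested.

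Among the transcription factors, Fev, Peg3 and Neurod1 were high enough to test. Fev encodes a factor of the serotonin lineage and of maturing enteroendocrine cells, and lay between 0.553 TPM (KO-1) and 2.09 TPM (WT-2), with a difference of -0.25 ± 0.23 (log2). Neurod1, a factor that drives endocrine differentiation, lay between 0.598 and 1.20 TPM, with a difference of -0.02 ± 0.19 (log2). The imprinted gene Peg3 lay between 0.827 and 1.86 TPM, with a difference of -0.04 ± 0.19 (log2). Of the remaining members, Ffar4, a receptor for long-chain fatty acids, lay between 3.54 and 9.73 TPM with a difference of 0.10 ± 0.27 (log2). Cryba2, a crystallin found in enteroendocrine cells, lay between 0.594 and 1.66 TPM with a difference of 0.25 ± 0.19 (log2).

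The 9 members under the filter were low in every mouse. Scg3, the gene of secretogranin III, came closest, with 4 mice at 1 TPM or more and a range of 0 to 2.22 TPM; WT-7 and WT-11 were listed at 0. Among the transcription factors, Nkx2-2 ranged from 0.146 to 1.34 TPM, Isl1 from 0.460 to 1.36 TPM and Rfx6 from 0 to 0.398 TPM. Each of Nkx2-2 and Isl1 reached 1 TPM in 1 mouse. Pax6 was above 0 in WT-2 only, at 0.177 TPM. The hormones Cck (cholecystokinin), Nts (neurotensin) and Ucn3 (urocortin 3) reached at most 0.629, 0.380 and 0.267 TPM. Cck was above 0 in WT-2, KO-1 and KO-9 only. Vwa5b2 was listed at 0 in all 11 mice. Scg3 (chromosome 9, 75643189 to 75684056, GRCm38) and Cck (chromosome 9, 121489824 to 121495694) lie on the same chromosome as Nrg4.

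Between genotypes, 0 of the 21 tested members passed an adjusted p of 0.05 in limma, against 0.0372% (4 genes) of all 10756 genes tested. The smallest adjusted p of a member was 0.9999. At an unadjusted p under 0.05 there were 2 members, Scg2 and Pcsk1n, both granule proteins with negative differences; that is 9.52% of the members against 3.1% of all genes. The exact permutation test within cages, whose smallest possible p is 0.00926, gave 0 of 21 members under 0.05. In no member did KO and WT fail to overlap, against 0.223% of all genes. Of the 21 differences 12 were negative (57.1%), beside 53.2% of all genes, and the members' median was -0.02 beside -0.01 (log2) for all genes.

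**Figure D2:**
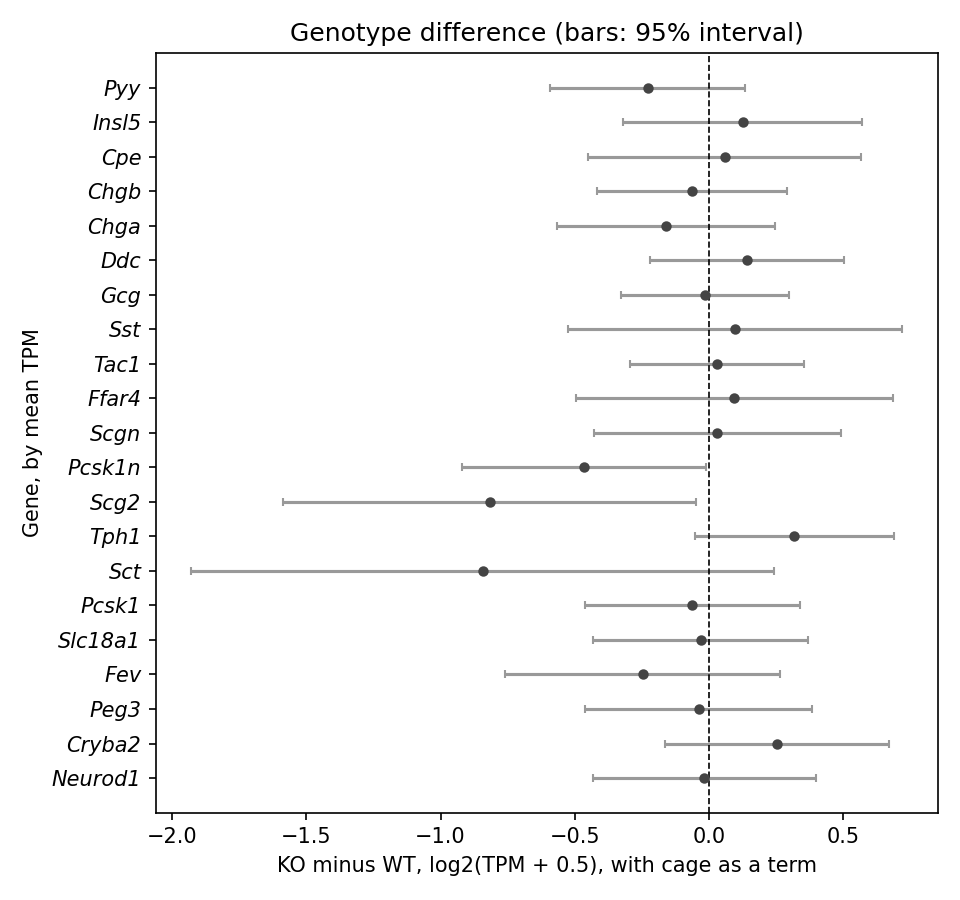
KO minus WT difference of the 21 tested genes on the log2(TPM + 0.5) scale with cage as a term (n = 6 WT, 5 KO); bars are 95% intervals. The intervals of Scg2 and Pcsk1n end just under 0, and all others include 0; none passed the adjusted threshold.

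The width of these intervals sets what could be seen. For Gcg, Tac1, Pyy, Chgb and Ddc the 95% interval of the fold lay within 0.664 and 1.42. The same held for Chga, Scgn, Pcsk1, Slc18a1, Peg3 and Neurod1, although this scale understates changes of low genes. For Sct it ran from 0.263 to 1.18, so that a level far under WT and a level above WT both lay inside it.

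Between cages, 0 members and 0 of all 10756 genes (0%) passed an adjusted p of 0.05 in the limma F test. At an unadjusted p under 0.05 there were 2 members, Tph1 and Chgb, or 9.52% against 12.1% of all genes. The adjusted p from limma was 0.263 for Tph1 and 0.410 for Chgb, from unadjusted values of 0.00118 and 0.0466. All 4 mice of cage A had more Tph1 than any other mouse: WT-5 had 5.50 TPM, WT-7 had 4.66, KO-1 had 6.90 and KO-8 had 9.81, whereas the 7 mice of cages B and C lay between 2.52 and 3.99 TPM. Tph1 was the sole member in which cage A did not overlap the other cages, which is 4.76% of the members against 4.04% of all genes. Each of the 2 listed Tph1 transcripts showed this separation, at 2.08 to 3.71 TPM against 1.01 to 1.97 for one and 2.47 to 6.10 against 1.26 to 2.40 for the other. KO exceeded WT within cage A and within cage B, but not within cage C. Cage A is also the only cage with Y-linked Eif2s3y above the trace level, so cage and Y-linked expression cannot be told apart here.

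Other genes that handle serotonin were set beside Tph1 after their values had been seen. Gch1, which makes the cofactor of tryptophan hydroxylase, lay between 12.1 and 15.6 TPM in cage A and between 8.49 and 13.3 TPM elsewhere. Slc6a4, the serotonin reuptake transporter of epithelium, lay between 11.8 and 14.4 TPM in cage A and between 13.6 and 22.4 TPM elsewhere. Maoa, which breaks serotonin down, lay between 142 and 168 TPM in cage A and between 169 and 236 TPM elsewhere. Slc18a2, the vesicular transporter of monoaminergic cells, lay between 0.882 and 1.99 TPM in cage A and between 1.63 and 2.51 TPM elsewhere. The cage A ranges overlapped those of the other cages for Gch1, Slc6a4 and Slc18a2 and ended just short of them for Maoa. None passed the limma cage test, with an adjusted p of 0.343 for Gch1, 0.319 for Slc6a4, 0.354 for Maoa and 0.543 for Slc18a2.

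**Figure D3:**
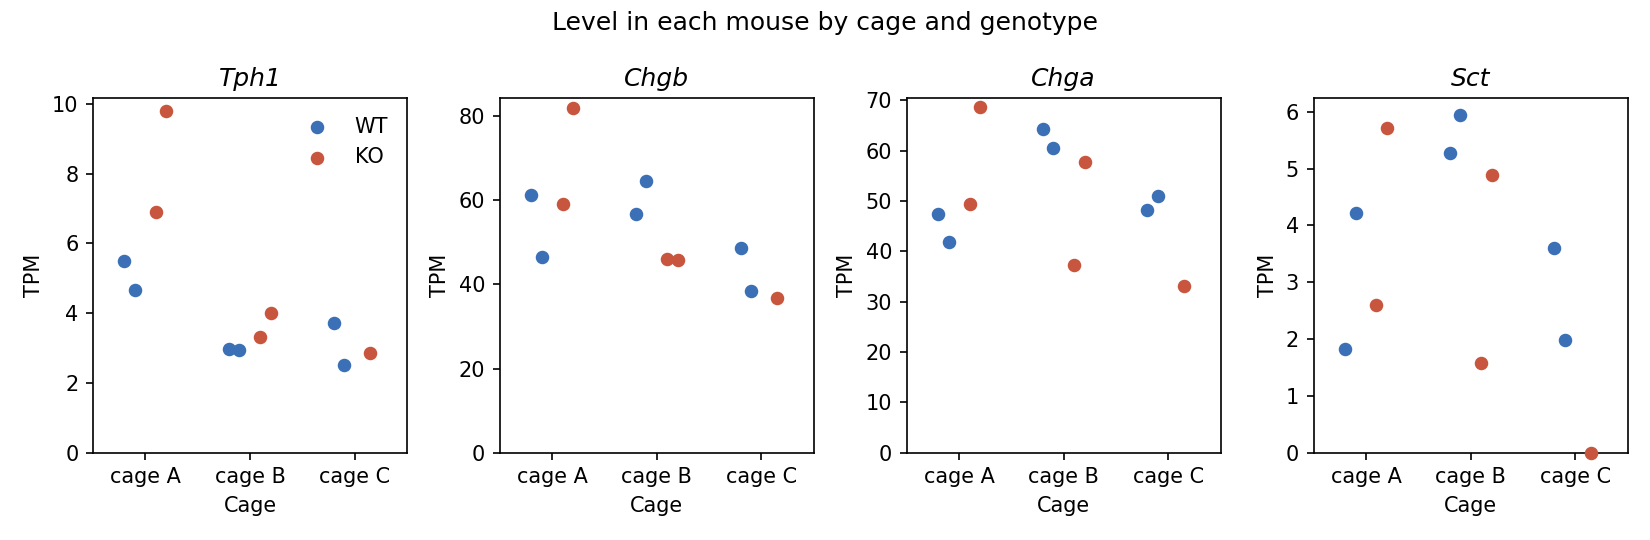
TPM of Tph1, Chgb, Chga and Sct in each mouse by cage (A with 2 WT and 2 KO mice, B with 2 and 2, C with 2 WT and 1 KO) and genotype. The 4 cage A mice hold the highest Tph1 values (4.66 to 9.81 TPM), and the KO mouse of cage C (KO-3) is lowest for Chga, Chgb and Sct.

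Whether a genotype difference depended on cage was examined with an F test on the terms for genotype by cage. It called 0 members and 0.0186% (2) of all genes at an adjusted p of 0.05; 2 members, Sct and Chga, had an unadjusted limma p under 0.05, against 3.97% of all genes. The KO minus WT difference of Sct was 0.40, -0.87 and -2.67 (log2) in the cages A, B and C. That of Chga was 0.38, -0.42 and -0.58, and that of Chgb was 0.38, -0.39 and -0.23. The KO arm of cage C is KO-3 alone. KO-3 had the highest mitochondrial share (42.9%). Over the 11 mice that share had r = -0.76 with Sct, -0.68 with Chgb, -0.62 with Tph1 and 0.81 with both Peg3 and Cryba2. Those are the strongest among the tested members, and the r with Chga was -0.48. Rescaled without mitochondrially encoded genes, the KO minus WT difference with cage as a term was -0.85 for Sct (-0.84 before rescaling). It was -0.13 for Chga (-0.16 before) and -0.04 for Chgb (-0.06 before). The terms for genotype by cage were not refitted on that scale. The part of the mitochondrial share in the differences by cage was not tested.

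Co-variation over mice was tested in 15 of 16 planned pairs, one being left out because Cck did not pass the filter. None had an adjusted permutation p under 0.05 for Pearson's r over all 11 mice, on the log2(TPM + 0.5) scale. The highest r was that of Pyy with Chga, at 0.76 (permutation p = 0.00768, adjusted 0.0863), with Spearman's rho of 0.79 (permutation p = 0.00548, adjusted 0.0822). It was 0.81 without the 2 mice farthest in Pyy and 0.91 within cages B and C. Gcg with Pcsk1, hormone and convertase of the L cell, had r = 0.71 (permutation p = 0.0136, adjusted 0.0863) and rho = 0.52, but 0.35 without the 2 mice farthest in Gcg (KO-1 and WT-5) and -0.40 within cages B and C. Leaving out 1 mouse at a time gave 0.58 (without KO-1) to 0.85 (without KO-4, adjusted permutation p = 0.0360).

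Chga with Chgb had r = 0.70 (permutation p = 0.0173, adjusted 0.0863) and rho = 0.55, and r = 0.37 without KO-3 and KO-8. Pyy with Insl5 had r = 0.65 (permutation p = 0.0272, adjusted 0.102) and rho = 0.46, and 0.58 without KO-1 and KO-3, but r = 0.00 within cages B and C. Gcg with Insl5 had r = 0.59 (permutation p = 0.0573, adjusted 0.172) and rho = 0.25, 0.50 without KO-1 and WT-5, and -0.35 within cages B and C. Gcg with Pyy had r = 0.44 (permutation p = 0.170, adjusted 0.364) and rho = 0.39, and -0.33 within cages B and C. Cage A held the mice with the lowest Insl5 and Gcg (WT-7 and KO-1) as well as KO-8, which was high in all 3 hormones, and without that cage the r of the 3 pairs was -0.35 to 0.00.

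With cage and genotype removed by regression, 2 of the 15 pairs had an adjusted p under 0.05, computed by random rotation of the 7 free directions left by 4 fitted terms, as permuted residuals would give too small a p. They were Gcg with Insl5 (residual r = 0.89, adjusted 0.0478) and Pyy with Chga (residual r = 0.86, adjusted 0.0481). The residual r of Tph1 with Chga was 0.78 (adjusted 0.105 by rotation) and that of Gcg with Pcsk1 0.76 (adjusted 0.105). Within cages B and C, r before that regression was 0.91 for Pyy with Chga and 0.10 for Tph1 with Chga. It was -0.35 for Gcg with Insl5 and -0.40 for Gcg with Pcsk1. Without that regression, the remaining pairs of members had these r. Gcg with Tph1 had r = 0.09 (permutation p = 0.796), Tph1 with Tac1 had r = 0.22 (permutation p = 0.502), Tph1 with Fev had r = -0.08 (permutation p = 0.809) and Sst with Chga had r = 0.25 (permutation p = 0.445). Tph1 with Chga had r = 0.31 (permutation p = 0.354) and Scg2 with Chgb r = 0.24 (permutation p = 0.471).

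All 210 pairs of the 21 tested members are described without a test, since they were examined after the values were known. Pearson's r ranged from -0.77 to 0.91 with a median of 0.21; 22 pairs were above 0.7 and 6 below -0.7. One set of genes with high mutual r over all 11 mice held Sst, Scgn, Tac1, Cpe, Pcsk1, Gcg and Insl5. Sst with Scgn had r = 0.91 (rho = 0.95), Gcg with Tac1 had 0.86 (0.81) and Cpe with Scgn had 0.82 (0.70). Another set held Pyy, Pcsk1n, Fev, Chga and Sct: r was 0.84 for Pyy with Pcsk1n, 0.83 for Pcsk1n with Fev, 0.83 for Chga with Sct and 0.79 for Pyy with Fev. Tph1 and Chgb had r = 0.71. Ffar4 had a negative r with all 7 genes of the first set. It was -0.77 (Pcsk1, Tac1) to -0.72 (Sst) for 5 of them, -0.57 with Cpe and -0.35 with Insl5. Without KO-1 and WT-7 the r with Insl5 was 0.37 and those 5 had -0.74 to -0.60. Within cages B and C the 5 had -0.61 to -0.33. The other pair below -0.7 was Pcsk1 with Neurod1 (-0.72). It had -0.92 without KO-1 and WT-7 and -0.83 within cages B and C. The 21 pairs of the first set had r from 0.54 to 0.91 (median 0.73) over all mice, from -0.36 to 0.85 (median 0.39) without KO-1 and WT-7, and from -0.71 to 0.89 (median 0.27) within cages B and C; Sst with Scgn was the highest each time. The 10 pairs of the second set had r from 0.56 to 0.84, from 0.70 to 0.92 and from 0.73 to 0.94 in the same order. Among the mice of cages B and C, KO-3 and KO-4 were the lowest for every gene of that second set. Sct, for example, was 0 TPM in KO-3 and 1.57 TPM in KO-4. The r of the second set without both KO-3 and KO-4 was not computed. Of the 22 pairs above 0.7, 8 were above it without KO-1 and WT-7 and 6 within cages B and C.

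**Figure D4:**
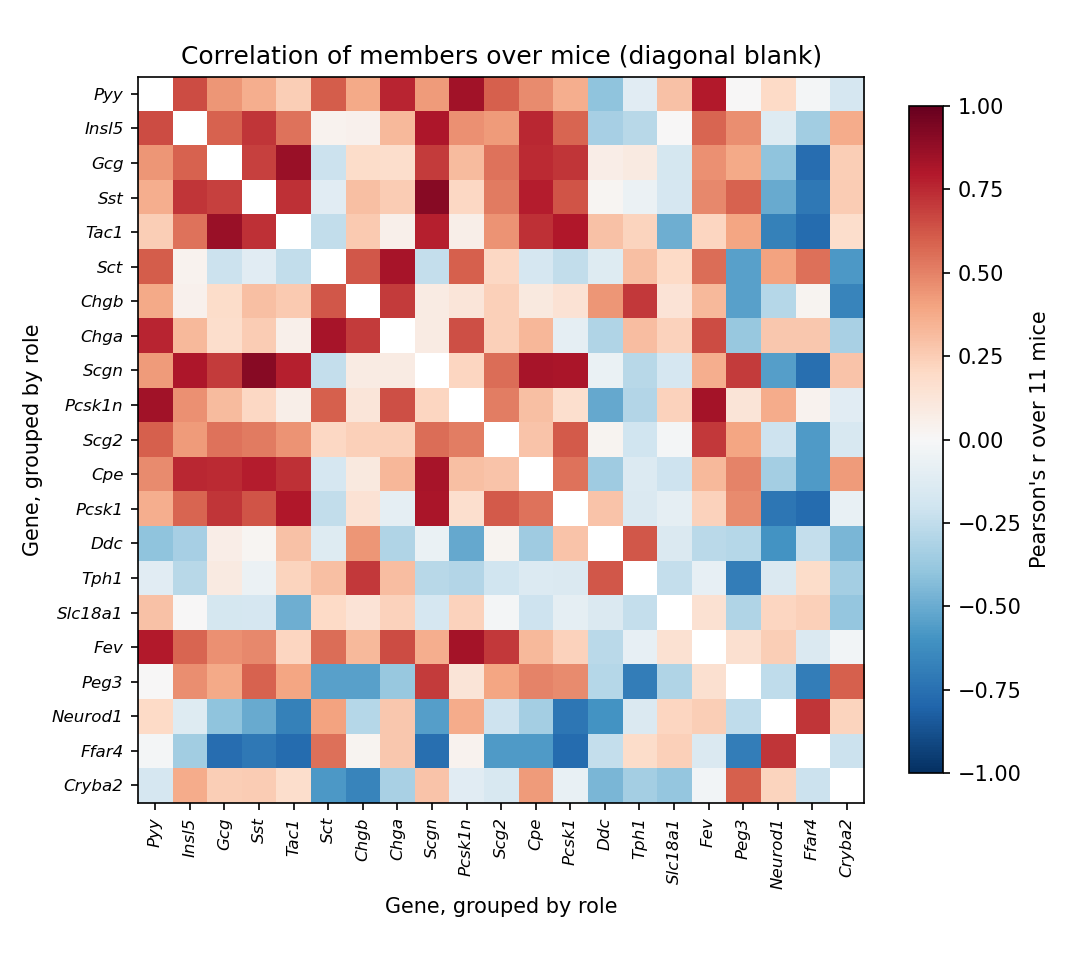
Pearson's r over the 11 mice for each pair of the 21 tested genes on the log2(TPM + 0.5) scale, grouped by role (hormones, granule proteins, processing enzymes, amine genes, transcription factors, others). Sst, Scgn, Tac1, Cpe, Pcsk1, Gcg and Insl5 form one red set, and Ffar4 is blue against most of it (-0.77 to -0.72 with 5 of these).

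Enteric neuron markers moved with the first set. Of 19 such markers, 14 passed the filter, and their mean log2 level per mouse ran from 2.23 in KO-1 and 2.39 in WT-7 to 3.10 in WT-5. The summed TPM of the 18 markers with a listed value, including those under the filter, was 95.6 to 177 in WT and 91.1 to 155 in KO. Of the pan-neuronal markers Elavl4 was listed at 0 in 9 mice, while Tubb3, Stmn2 and Snap25 were above 5 TPM in every mouse. Snap25 is also on the list of granule and exocytosis genes of enteroendocrine cells read below. The level without Snap25 was not computed. The r with this level was 0.90 for Scgn, 0.83 for Insl5, 0.82 for Sst, 0.79 for Cpe, 0.76 for Tac1, 0.76 for Peg3, 0.72 for Pcsk1 and 0.69 for Gcg. These 8 are the members above 0.6, or 8 of 21, where 3.90% of all tested genes are above 0.6. Without KO-1 and WT-7 there were 4 (Scgn 0.79, Sst 0.68, Cpe 0.68, Peg3 0.60), beside 4.31% of all genes. Tac1, Insl5, Pcsk1 and Gcg then had 0.59, 0.39, 0.22 and 0.21. Within cages B and C, r was 0.81 for Insl5, 0.72 for Sst and 0.71 for both Scgn and Tac1. It was 0.67 for Peg3, 0.62 for Cpe, -0.03 for Gcg and -0.34 for Pcsk1.

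Chga, Chgb and Scg2 were the members whose relation to the neuron markers was planned. Their r was 0.07 (permutation p = 0.828), -0.08 (permutation p = 0.817) and 0.53 (permutation p = 0.0933, adjusted 0.233). Scgn, Sst, Cpe, Tac1, Peg3 and Scg2 are also known from neurons. Insl5 (r = 0.83) and Gcg (r = 0.69) are known as L-cell genes, and Pcsk1 had r = 0.72. Ffar4 had r = -0.66 with the neuron markers. The share of each member's RNA that came from neurons was not tested. The epithelial markers, all 12 of which passed the filter, had a summed level of 9832 to 12635 TPM in WT and 8714 to 13628 TPM in KO, and r with Insl5, Gcg and Scgn of 0.08, 0.12 and -0.26.

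**Figure D5:**
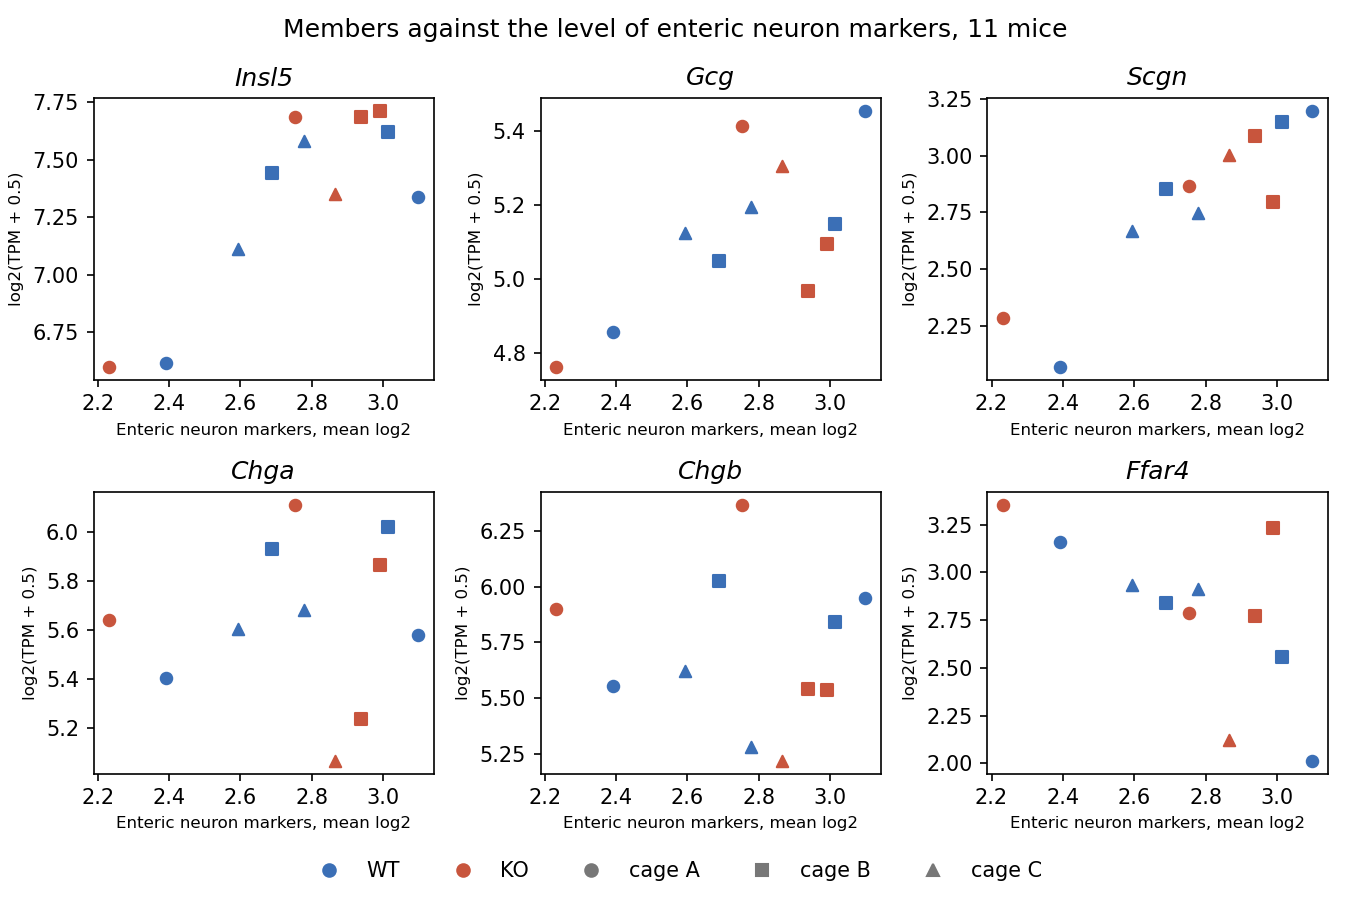
Level of 6 members (log2(TPM + 0.5)) against the mean log2 level of 14 enteric neuron markers in the 11 mice; colour is genotype and shape is cage. Insl5, Gcg and Scgn are lowest in the 2 cage A mice with the fewest neuron-marker transcripts (KO-1 and WT-7), where Ffar4 is high; Chga and Chgb show no such order (r = 0.07 and -0.08).

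The genes outside the list with the pattern most like the mean of Gcg, Pyy and Insl5 over the 11 mice were, by Pearson's r, Rheb (0.92), Hand2 (0.92), Ces1d (0.91), Gtpbp10 (0.90), Dner (0.88), Lgalsl (0.88), Ndufa12 (0.88), Tmx3 (0.87), Tubb4a (0.87) and Syt11 (0.86). They are the top 10 of the tested genes outside the members, with unnamed gene models left out, and are given as a ranking. The mean itself was lowest in KO-1 (6.26, log2) and WT-7 (6.33) and lay between 6.70 (KO-3) and 7.09 (KO-8) in the other mice. The ranking without KO-1 and WT-7 was not computed. Hand2, a transcription factor of enteric neurons and gut muscle, lay between 3.32 and 7.25 TPM. Ces1d, a carboxylesterase, lay between 9.22 and 21.5 TPM. Among the members themselves, Cpe (0.77), Scgn (0.77), Fev (0.73) and Sst (0.69) were most like that mean, and Ffar4 (-0.39) and Ddc (-0.31) least.

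Related genes outside the 30 were read from lists of other enteroendocrine hormones and transcription factors (8 of 25 tested), nutrient receptors and excitability genes (6 of 24), granule and exocytosis genes (23 of 30) and hormone or serotonin receptors (10 of 26). None of these genes passed the genotype test in either direction, and none had an unadjusted limma p under 0.05. The median KO minus WT difference was 0.09, -0.11, -0.06 and 0.08 (log2) for the 4 lists. Pam, which amidates peptide hormones such as peptide YY, had 0.49 ± 0.25, and Slc6a4 had -0.20 ± 0.10. Foxa2, a factor upstream of several endocrine genes, had 0.41 ± 0.37 and Mlxipl, a glucose-responsive factor, had 0.27 ± 0.26. Slc5a1, the sodium-glucose transporter used for nutrient sensing, had -0.11 ± 0.09 and Olfr78, a short-chain fatty acid receptor, had -0.19 ± 0.21.

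Of the receptors for these hormones, Tacr2, the neurokinin receptor of gut muscle, had -0.18 ± 0.15 and the serotonin receptor Htr4 had 0.21 ± 0.20 (log2). Npy1r, a peptide YY receptor, had a median of 8.20 TPM, Dpp4, a peptidase on the same list that cleaves gut hormones, had 10.4 TPM, and Rxfp4, the receptor for insulin-like peptide 5, reached at most 0.245 TPM. In the marker lists, the 2 genes with the smallest p were Nefm (0.18 ± 0.17) and Ret (-0.15 ± 0.20) for neurons and Cldn7 (-0.16 ± 0.12) and Cdh17 (-0.12 ± 0.10) for epithelium. S100b (0.20 ± 0.21) and Gfap (-0.25 ± 0.29) stood for glia, and Acta2 (0.14 ± 0.19) and Cnn1 (0.04 ± 0.17) for smooth muscle. Among tuft cell markers Avil alone was tested, at 0.48 ± 0.20 (unadjusted p = 0.0349 and adjusted p = 0.9999 in limma). No marker list held a gene that passed the adjusted test.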

How the data were processed

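Polyadenylated RNA of full-thickness distal colon was read as stranded single-end reads of 75 nt, per the labels' protocols. The submitters' processing notes name CASAVA, kallisto, sleuth and the build mm10, with no version. The authors deposited TPM of each principal transcript in each mouse, together with their own p-value, q-value and log2 ratio of the genotypes, per the file headers. TPM keeps no depth, so reads per library are unknown and no counting interval is given. Of 29213 rows, 405 repeats were dropped, and the 28808 transcripts were summed to 22243 genes. The 10756 genes that reached 1 TPM in 5 or more mice were fitted on log2(TPM + 0.5) with limma 3.58.1 (R 4.3.3, trended variance), the terms being genotype and cage, and p-values were adjusted after Benjamini-Hochberg over all of them at 0.05; fold changes on this scale understate changes of low genes. The script was tested on simulated data. Cage and its interaction with genotype were tested with F tests. Exact permutation tests relabelled genotypes within cages on cage-centred values. Correlations used 100000 resamples. Named genes were all 30 members, the 2 genes with the smallest genotype p of each list and 10 genes like the mean of Gcg, Pyy and Insl5. Those 10 were the most alike outside the members, with unnamed gene models left out. The members and lists were chosen with earlier results of these data known. Coordinates are from GENCODE M21. The labels name separate mice as samples. Alternatives were other pseudocounts, filters and scalings, no cage term, and leaving out each mouse or cage C.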

Additional observations from a re-analysis of the deposited data

Results flagged for a closer look

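Of 42 groups examined (21 tested genes in WT and in KO), 1 held a mouse that stood far from the others of its group, where chance alone marks about 1 in 20. It was Tac1 in WT-5, at 16.55 TPM, where the other 5 WT mice lay between 9.51 and 11.8 TPM. WT-5 also had the highest level of enteric neuron markers (3.10, mean log2) and the highest Gcg (43.4 TPM) and Pcsk1 (3.23 TPM) of the WT mice; their part in the Tac1 value was not tested.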

How the results depend on the processing

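No member passed the adjusted threshold for genotype, cage or their interaction under any alternative run, including leaving out each mouse; the smallest adjusted p for genotype was 0.572. The count of members with an unadjusted genotype p under 0.05 ranged from 0 to 5, the latter without KO-8. Of 389 alternative values of single members, 44 changed sign, in 12 of 21 genes; all 12 had a standard error larger than their difference. Chgb was 0.000447 with no cage term. Scaled to epithelial markers, Gcg was 0.0277, Slc18a1 0.0120, Peg3 0.00405 and Neurod1 0.0246. Rescaled without mitochondrial genes, Gcg was 0.0118 and Neurod1 0.000292. Without cage C, Sst was -0.11, Tac1 -0.00622, Scgn -0.0574 and Neurod1 0.0781. Leaving out 1 mouse at a time gave -0.19 to 0.0107 for Chgb, -0.14 to 0.23 for Cpe, -0.12 to 0.39 for Ffar4, -0.10 to 0.0863 for Gcg, -0.0340 to 0.28 for Insl5, -0.12 to 0.0781 for Neurod1, -0.15 to 0.0671 for Pcsk1, -0.19 to 0.0702 for Peg3, -0.12 to 0.21 for Scgn, -0.12 to 0.10 for Slc18a1, -0.11 to 0.29 for Sst and -0.0616 to 0.16 for Tac1; the cause was not tested. Of the genes that kept their sign, Tph1 ran from 0.20 to 0.45, Ddc from 0.0502 to 0.22, Cryba2 from 0.14 to 0.28 and Fev from -0.44 to -0.0970. Cryba2 fell under the filter without WT-2, WT-10, KO-3, KO-4 or KO-9 and was not fitted there. The same held for Neurod1 without WT-2, WT-6, WT-7, WT-10 or KO-9. Correlated pairs numbered 0 of 15, 2 with residuals, and 0 to 2 leaving out 1 mouse at a time (1 without KO-1, 2 without KO-4). Spearman's rho was -0.0818 for Gcg with Tph1 and 0.0182 for Tph1 with Fev; residual r was 0.58 for Tph1 with Fev and 0.0509 for Chgb with neuron markers, and 0.0463 for the latter scaled to epithelium. With 1 mouse left out, r was -0.0509 to 0.19 for Chga and -0.20 to 0.0535 for Chgb with neuron markers, -0.34 to 0.42 for Gcg with Tph1, -0.0320 to 0.45 for Tph1 with Chga and -0.56 to 0.32 for Tph1 with Fev. The rotation test and the removal of KO-1 with WT-7 were chosen after seeing the data. No paired analysis was possible because the mouse numbers of the 2 genotypes do not repeat. Depth is unknown, and 9 members lay too low to test.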
